A study of Homo sapiens with 18 samples.

Results

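The 10 genes described here handle iron and heme in the cell: HMOX1, FTL, FTH1, TFRC, SLC40A1, SLC11A2, IREB2, ACO1, NCOA4 and BLVRB. They were taken by symbol from a table of 43735 genes, in which each symbol had a single row, and all 10 passed the filter on low counts that kept 14281 genes for testing. RNA was sequenced from MM1S, a human multiple myeloma line sensitive to glucocorticoids, and from MM1R, its glucocorticoid-resistant counterpart. In each line, 3 libraries came from untreated cells, 3 from cells exposed for 3 h to 5 µM RSL3, and 3 from cells that received 2 µM Fer-1 for 2 h ahead of the same RSL3 exposure. RSL3 blocks GPX4, which detoxifies peroxidized lipids, and thereby starts ferroptosis, while Fer-1 (ferrostatin-1) traps the radicals that carry lipid peroxidation. Replicates 1, 2 and 3 were passages 4, 6 and 7 of MM1R cells and passages 16, 22 and 23 of MM1S cells, so each passage held every treatment. Both lines were grown in the same serum-containing medium, and none of the libraries received Fer-1 without RSL3.

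Ferroptosis is a form of cell death that needs redox-active iron. Cells take up transferrin-bound iron through the transferrin receptor, store it in ferritin shells, release it again when ferritin is degraded, and export it through ferroportin. Heme oxygenase opens the heme ring and frees its iron, and the bilirubin pathway reduces the rest of the ring. Iron regulatory proteins sense the cytosolic iron supply and bind hairpins in mRNA, called iron-responsive elements. Bound at the start of a ferritin or ferroportin mRNA they block translation, and bound at the end of the transferrin receptor mRNA they protect it from decay. Of these mRNAs, the receptor's is thus the one whose abundance follows the sensors directly. RNA counts do not measure the translation of ferritin or ferroportin.

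The iron-responsive elements found in these genes are shown because iron can act on an mRNA through them. A search of the annotated canonical transcripts looked, on the transcribed strand, for a C, a stem of 5 bases, the loop CAGTG followed by any base, and 5 bases that pair with the stem, with G-T pairs allowed. Such an element was found in 18 of 19294 5′ UTRs (0.0933%) and in 122 of 19778 3′ UTRs (0.617%). Of the 10 genes, 4 held one. FTH1 (chr11:61735047-61735073, minus strand), FTL (chr19:49468593-49468619, plus strand) and SLC40A1 (chr2:190445388-190445414, minus strand) held 1 each in the 5′ UTR, and TFRC held 4 in the 3′ UTR (chr3:195777851-195777877, chr3:195777447-195777473, chr3:195777382-195777408 and chr3:195777335-195777361, minus strand, in order along the mRNA). Positions are on GRCh37, and each sequence is written as DNA, 5′ to 3′, with the 6 bases of the loop in capitals and 5 flanking bases on either side of the element.
FTH1: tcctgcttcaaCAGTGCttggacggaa
FTL: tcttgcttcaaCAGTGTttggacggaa
SLC40A1: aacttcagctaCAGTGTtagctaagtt
TFRC 1: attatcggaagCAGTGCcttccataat
TFRC 2: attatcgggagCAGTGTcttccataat
TFRC 3: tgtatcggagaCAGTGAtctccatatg
TFRC 4: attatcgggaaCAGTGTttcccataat
The search itself fixed the first 5 bases of the loop, so only its last base could differ among the 7. The other 6 genes had no match to the whole element in the UTRs of the single transcript searched, although CAGTG alone occurred in IREB2, SLC11A2, ACO1 and NCOA4 as it did in 67.7% of all 3′ UTRs, and other transcripts of the same genes were not searched.

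Total counts per library lay between 17635438 and 19368343. All 7 plasma cell markers listed passed the filter, with a summed level of 3579 to 5403 CPM (counts scaled to a common library size), whereas the summed B cell and macrophage markers stayed at or below 0.506 and 0.727 CPM. The T cell list reached 3.42 to 11.8 CPM through CD3E, while CD3D had at most 1 count. HBB gave nearly all of the 3.45 to 12.7 CPM of the erythroid list. The glucocorticoid receptor gene NR3C1, low in MM1R cells, checked the line labels. It was at 13.8 to 22.3 CPM in 8 of the MM1R libraries and at 50.2 CPM in replicate 2 of the MM1R group labelled Fer-1 + RSL3. In that library, 12 genes that were at least 8-fold higher in MM1S than in the other MM1R libraries lay a median of 45.7% of the way from the MM1R to the MM1S mean (quartiles 41.5% and 52.2%). In the other 17 libraries the corresponding measure lay between -6.97% and 3.53% of the way to the other line. Its genes, 7 to 20 in number, were chosen anew for each library. For the other MM1R libraries, the MM1R mean included the library with NR3C1 at 50.2 CPM. The library labelled MM1S RSL3 replicate 1 also stood apart, with the lowest normalization factor (0.864) and NR3C1 at 392 CPM against 89.9 to 163 CPM in the other MM1S libraries. Calls that change without either library are given with and without it, and the part of these libraries in the results was otherwise not tested.

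**Figure D1:**
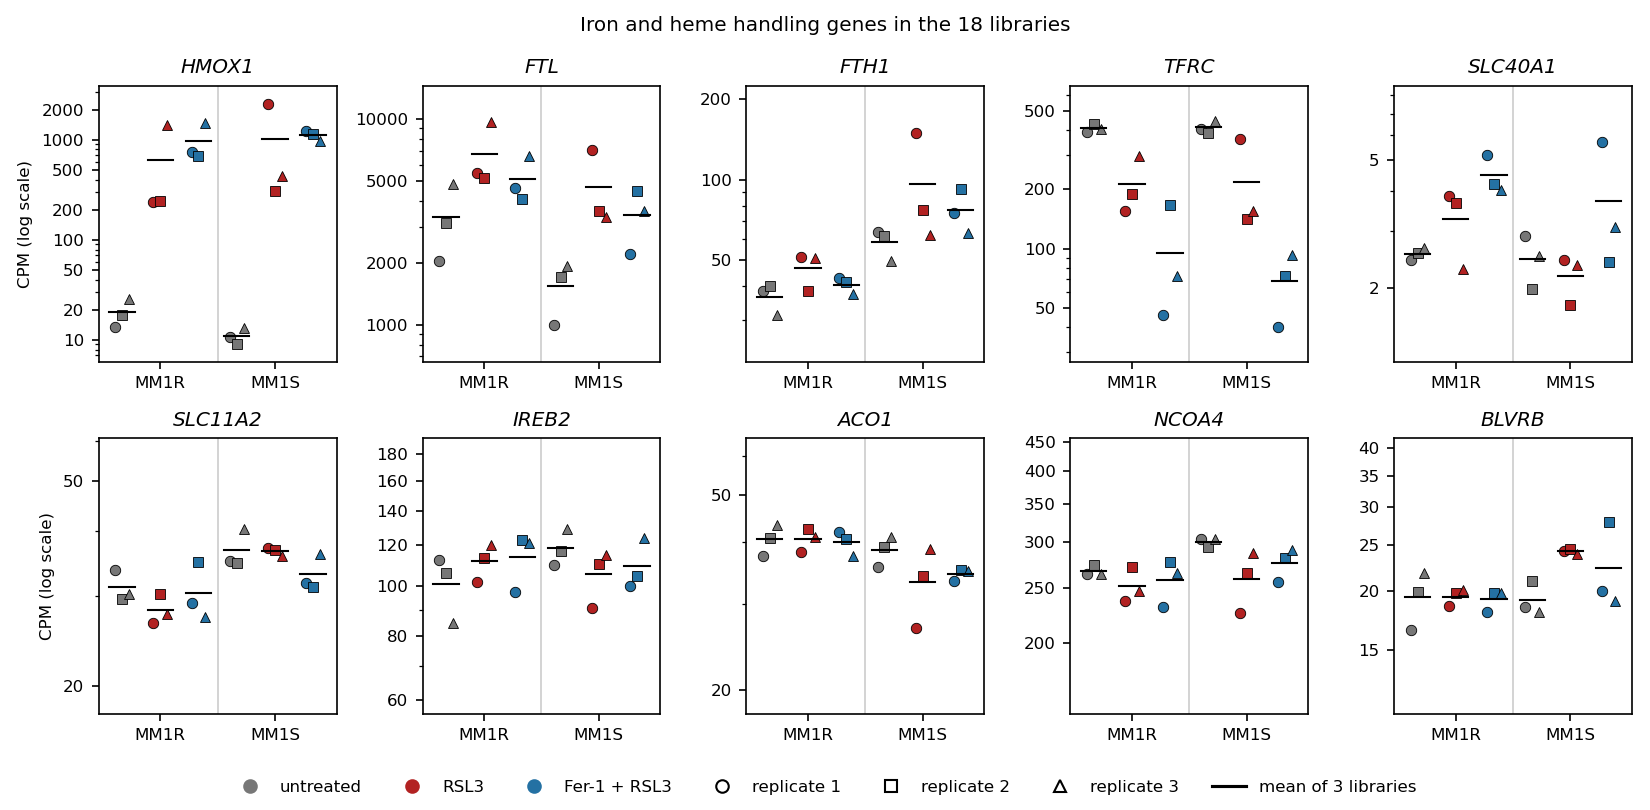
Level of each of the 10 genes in the 18 libraries, in CPM on a logarithmic axis that differs between panels, with untreated, RSL3 and Fer-1 + RSL3 libraries side by side for MM1R (left) and MM1S (right). Symbols mark replicates and bars the mean of 3 libraries. HMOX1 lies at 9.09 to 25.4 CPM in untreated libraries and at 237 to 2298 CPM in all treated ones, the group means of TFRC are lower with RSL3 and lowest with Fer-1 + RSL3, and the 5 genes of the lower row stay within narrow bands.

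Comparison of RSL3-treated with untreated cells asks which iron and heme genes respond to the inducer within 3 h. Every difference was tested by the quasi-likelihood test of edgeR, with p-values adjusted by Benjamini and Hochberg's method over all genes tested (FDR). A gene was called a DEG when its FDR was under 0.05 and its log2 fold change beyond 1 in either direction. HMOX1 was the one DEG among the 10 in MM1R cells, where 1.2% of all genes were called, and HMOX1 and FTL were the 2 DEGs in MM1S cells, where 1.61% were. In the average over both lines, HMOX1 and FTL were DEGs (3.24% of all genes). With the FDR alone, FTH1 and TFRC passed as well, which makes 4 of 10 beside 15.5% of all genes. The 10 genes were chosen with earlier results of these data known, so such shares do not test them as a set. The median log2 fold change of the 10 genes was 0.04 in that average, beside 0.00 over all genes tested.

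HMOX1 (chr22:35776354-35790207, plus strand, 5 exons) encodes the inducible heme oxygenase, which cleaves heme into biliverdin, carbon monoxide and ferrous iron. In untreated MM1R cells it was at 13.5, 17.8 and 25.4 CPM in replicates 1, 2 and 3, and with RSL3 at 237, 243 and 1404 CPM. In MM1S cells it was at 10.6, 9.09 and 13.2 CPM untreated and at 2298, 310 and 434 CPM with RSL3. No treated library overlapped an untreated one, and within each RSL3 group a single library, replicate 3 of MM1R and replicate 1 of MM1S, stood several fold above the others. HMOX1 rose by a log2 fold change of 5.05 (SE 0.80, FDR 0.00467) in MM1R cells, or 33.2-fold, and of 6.53 (SE 0.86, FDR 0.00177) in MM1S cells, or 92.5-fold. In such bulk samples a change in the number of expressing cells and one in the RNA per cell cannot be told apart. The call in MM1S cells was lost when only the 6 libraries compared were fitted (log2 fold change 6.53, FDR 0.145). Without MM1S RSL3 replicate 1 the log2 fold change there was 5.09, and without MM1R RSL3 replicate 3 it was 3.67 in MM1R cells, DEGs in both cases. The rise was measured in all 6 passages, from 3.76 to 7.75 on the log2 scale, and 13.8% of all genes were higher with RSL3 in all 6.

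FTL and FTH1 encode the light and heavy chains of ferritin, of which the heavy chain oxidizes iron for storage and the light chain supports the mineral core. FTL (chr19:49468566-49470136, plus strand, 4 exons) was at 2040, 3131 and 4808 CPM in untreated MM1R cells and at 5434, 5182 and 9648 CPM with RSL3. In MM1S cells it was at 991, 1713 and 1933 CPM untreated and at 7095, 3590 and 3333 CPM with RSL3. In both lines every RSL3 library was above every untreated one. FTL rose by 1.60 on the log2 scale (SE 0.38, FDR 0.0288) in MM1S cells, while the difference in MM1R cells was 1.02 (SE 0.38, FDR 0.152). The MM1S call ended without RSL3 replicate 1 (1.17, FDR 0.158), without any 1 of the untreated MM1S libraries (FDR 0.150, 0.0809 and 0.0628 without replicates 1, 2 and 3) and in a fit of only the groups compared (FDR 0.188). The average over both lines, a rise of 1.31 (SE 0.27, FDR 0.00389) or 2.48-fold, remained a DEG in all 18 fits that left out a library.

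FTH1 (chr11:61727190-61735106, minus strand, 4 exons) was at 38.4, 40.0 and 31.3 CPM in untreated MM1R cells and at 51.6, 38.2 and 51.0 CPM with RSL3. In MM1S cells it was at 63.8, 61.7 and 49.8 CPM untreated and at 149, 77.2 and 62.3 CPM with RSL3. The groups overlapped in both lines, and the highest value was again MM1S RSL3 replicate 1. The log2 fold change was 0.36 (SE 0.24, FDR 0.479) in MM1R cells, 0.72 (SE 0.24, FDR 0.11) in MM1S cells and 0.54 (SE 0.17, FDR 0.0436) in the average over both lines. The FDR of that average was above 0.05 in 11 of the 18 fits that left out a library, and the log2 fold change was 0.31 (FDR 0.0915) without MM1S RSL3 replicate 1. When the model included the passage as a block, FTH1 in MM1S cells had an FDR of 0.0424, as BLVRB and 13.3% of all genes also passed there.

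Measured per kilobase of transcript, FTL was 21.5 to 261 times FTH1 in the 18 libraries, with a median of 75.8. The annotation lists 25 processed or other pseudogenes named after FTH1 and 16 named after FTL, of which 2 and 1 had rows in the table and no row exceeded 7 counts. FTH1 also overlaps BEST1 on the opposite strand, and neither the counting tool nor its use of strand is given in the sources used here, so the level of FTH1 is uncertain.

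TFRC (chr3:195739382-195809024, minus strand, 19 exons) encodes transferrin receptor 1, the main route of iron uptake. It was at 389, 431 and 403 CPM in untreated MM1R cells and at 156, 189 and 296 CPM with RSL3. In MM1S cells it was at 405, 388 and 446 CPM untreated and at 361, 141 and 155 CPM with RSL3. Every RSL3 library was below every untreated one in both lines, and the highest RSL3 values belonged to the same 2 libraries that had the highest HMOX1. The log2 fold change was -0.93 (SE 0.42, FDR 0.242) in MM1R cells, -0.92 (SE 0.42, FDR 0.239) in MM1S cells and -0.92 (SE 0.30, FDR 0.0437) in the average, which passed the FDR but not the limit on fold. The FDR of the average was above 0.05 in 11 of the 18 fits that left out a library. Without MM1S RSL3 replicate 1 it was -1.20 (FDR 0.00803) and without MM1R RSL3 replicate 3 it was -1.08 (FDR 0.0327), both DEGs. In MM1S cells alone, none of the 18 fits that left out a library called TFRC, with a lowest FDR of 0.103. An alternative added after the data were seen left out MM1S RSL3 replicate 1 and MM1R Fer-1 + RSL3 replicate 2. The MM1S value was then -1.48 (FDR 0.0290), a DEG.

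SLC40A1 (chr2:190425316-190448484, minus strand, 8 exons) encodes ferroportin, the iron exporter, and was the least abundant of the 10. Its level was 2.44, 2.56 and 2.66 CPM in untreated MM1R cells and 3.87, 3.68 and 2.28 CPM with RSL3. In MM1S cells it was 2.90, 1.99 and 2.51 CPM untreated and 2.43, 1.76 and 2.35 CPM with RSL3. The groups overlapped in both lines, with log2 fold changes of 0.36 (SE 0.29, FDR 0.573) in MM1R and -0.18 (SE 0.30, FDR 0.800) in MM1S cells.

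The other 5 genes act around this core. SLC11A2 encodes DMT1, which moves ferrous iron out of endosomes, IREB2 and ACO1 encode the iron regulatory proteins IRP2 and IRP1, NCOA4 is the receptor that delivers ferritin to lysosomes, and BLVRB is a flavin and biliverdin reductase. Their log2 fold changes with RSL3 lay between -0.22 and 0.34 in the lines, none with an FDR under 0.05. NCOA4 was at 264, 274 and 264 CPM in untreated MM1R cells and at 237, 272 and 247 CPM with RSL3, and in MM1S cells at 304, 294 and 305 CPM untreated and at 225, 265 and 287 CPM with RSL3. It was lower with RSL3 in all 6 passages, as was TFRC and as were 14.8% of all genes. Its average log2 fold change was -0.15 (SE 0.07, FDR 0.177), and the FDR was 0.0462 in the blocked fit, where 30.4% of all genes passed. BLVRB was at 18.5, 20.9 and 18.1 CPM in untreated MM1S cells and at 24.3, 24.6 and 24.0 CPM with RSL3, which did not overlap (0.34, SE 0.14, FDR 0.190, and FDR 0.0494 in the blocked fit), while in MM1R cells the difference was 0.00 (SE 0.14, FDR 0.998). Groups did not overlap for 3 of the 10 genes in MM1R cells, beside 25.7% of all genes, and for 5 in MM1S cells, beside 24.9%.

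The effects of RSL3 in the lines were compared directly through their interaction, MM1R minus MM1S. The lines also differed in passage number, which cannot be told apart from the line here. No gene passed the FDR (0% called), and at an unadjusted p under 0.05 there were 222 genes (1.55%), none of them among the 10. DESeq2 called 0 of the 10 as well. The fit with no filter on low counts called HMOX1 (-1.43, FDR 1.61e-05). Its fold change was close to that with the filter, so this call came from a change in the FDR and not in the fold. The unfiltered fit also gave TFRC an FDR of 1.52e-20 for Fer-1 + RSL3 against RSL3 in MM1S cells, against 0.783 with the filter. Why FDRs moved so far was not tested, so calls of the unfiltered fit need caution. The interaction of HMOX1 was -1.48 with a 95% confidence interval from -3.55 to 0.60, that of FTL -0.57 (-1.69 to 0.54) and that of TFRC -0.02 (-1.25 to 1.22), so the intervals leave room for sizeable differences in either direction. The HMOX1 interaction was -0.03 without MM1S RSL3 replicate 1 and -2.85 without MM1R RSL3 replicate 3.

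**Figure D2:**
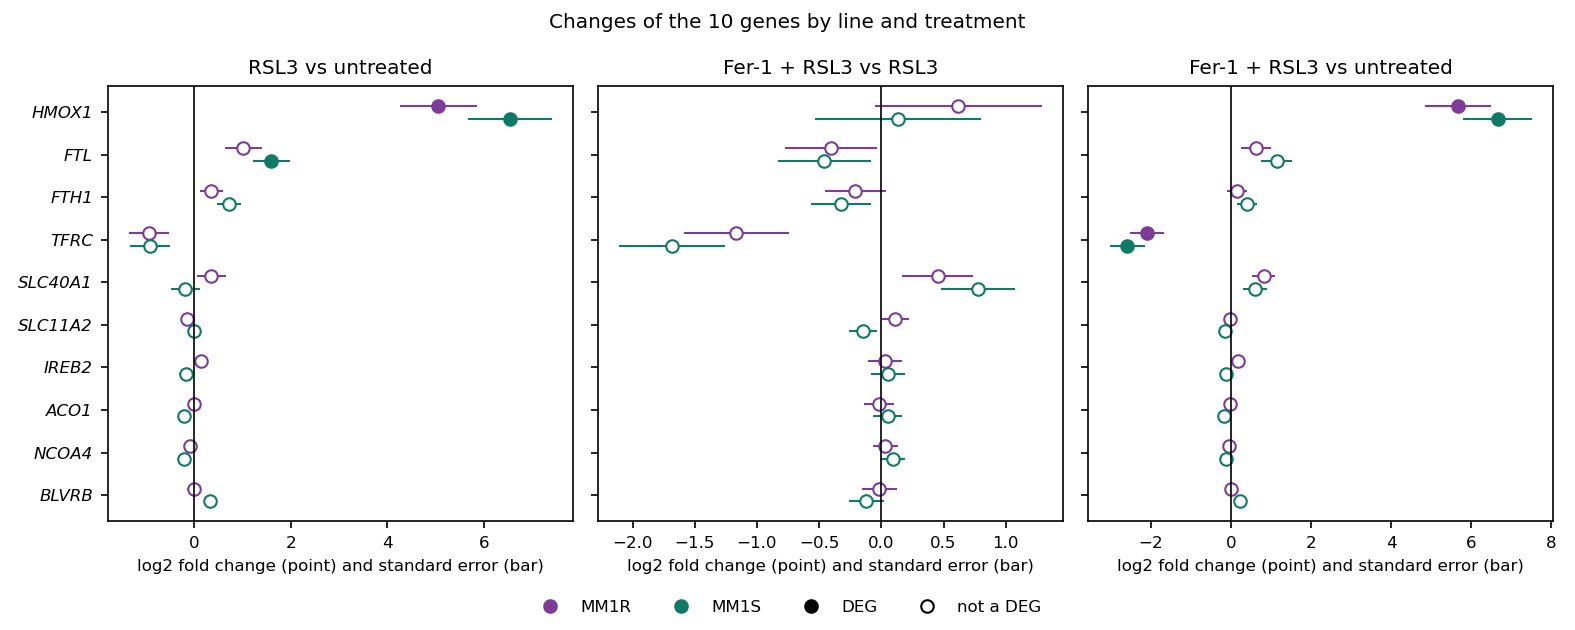
Log2 fold change (points) and standard error (bars) of the 10 genes in MM1R and MM1S cells for RSL3 against untreated, Fer-1 + RSL3 against RSL3, and Fer-1 + RSL3 against untreated, with a horizontal scale of its own in each panel. Filled points are DEGs. HMOX1 is filled in the outer panels at 5.05 to 6.67, FTL in MM1S cells with RSL3 (1.60), TFRC only against untreated cells with Fer-1 + RSL3 (-2.10 and -2.60), and the middle panel has no filled point.

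Comparison of Fer-1 + RSL3 with RSL3 alone asks which of the 10 genes differ when Fer-1 precedes RSL3. No library received Fer-1 alone, so an effect of Fer-1 by itself and one on the response to RSL3 cannot be told apart. None of the 10 genes was a DEG in MM1R cells, MM1S cells or their average, where 0%, 0% and 0.056% of all genes were called. With the passage as a block, TFRC was a DEG in the average, beside 0.371% of all genes. At an unadjusted p under 0.05 there was 1 of the 10 in MM1R cells (TFRC), beside 6.17% of all genes, and 2 in MM1S cells (TFRC and SLC40A1), beside 5.75%, and in the average the same 2 genes passed that limit beside 12.8%. DESeq2 called 0 of the 10 in each line. Groups did not overlap for 1 of the 10 in MM1R cells (SLC40A1), beside 13.4% of all genes, and for 1 in MM1S cells (TFRC), beside 8.79%. This comparison shares the RSL3 libraries with the one above, so the values of each are given side by side and not correlated.

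HMOX1 did not pass the test in this comparison. The MM1R libraries with Fer-1 + RSL3 held 748, 685 and 1463 CPM, against 237, 243 and 1404 CPM with RSL3. The MM1S libraries held 1220, 1142 and 975 CPM, against 2298, 310 and 434 CPM. Fer-1 + RSL3 values were higher in 5 of 6 passages and lower in passage 16 of MM1S cells, where RSL3 alone gave the highest value of all. The log2 fold change was 0.62 (SE 0.67, FDR 0.926) in MM1R cells, 0.13 (SE 0.67, FDR 0.994) in MM1S cells and 0.38 in the average (95% confidence interval -0.62 to 1.38, FDR 0.796). These values rested on single RSL3 libraries. The MM1R value was 1.99 without RSL3 replicate 3. The MM1S value was 1.58 without RSL3 replicate 1, and -0.29 and -0.23 without replicates 2 and 3. The average was 1.07 without that MM1R library and 1.09 without MM1S replicate 1, and no such fit passed the FDR. Against untreated cells HMOX1 was a DEG under Fer-1 + RSL3 in both lines, with a rise of 5.67 (SE 0.82, FDR 0.000942), or 51.1-fold, in MM1R and of 6.67 (SE 0.87, FDR 0.000487), or 101-fold, in MM1S cells. The untreated libraries were those of the RSL3 comparison, in which the rises were 5.05 and 6.53.

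TFRC had its lowest group means in cells given Fer-1 and RSL3. The 3 values were 46.2, 167 and 72.7 CPM in MM1R and 40.0, 72.5 and 92.4 CPM in MM1S cells, where every library was below every RSL3 library. In MM1R cells the groups overlapped through replicate 2, the library with NR3C1 at 50.2 CPM. The log2 difference from RSL3 alone was -1.75, -0.18 and -2.02 in passages 4, 6 and 7 of MM1R and -3.17, -0.96 and -0.75 in passages 16, 22 and 23 of MM1S cells, and 6.56% of all genes were lower in all 6. The log2 fold change was -1.16 (SE 0.42, FDR 0.709) in MM1R cells, -1.68 (SE 0.43, FDR 0.783) in MM1S cells and -1.42 (SE 0.30, FDR 0.0616) in the average. The average became a DEG in the blocked fit (-1.45, FDR 0.0295, where 0.371% of all genes were called), with DESeq2 (-1.43, FDR 0.00532), without that replicate 2 of MM1R (-1.76, FDR 0.0350) and without MM1S RSL3 replicate 2 or 3 (-1.54 and -1.52, FDR 0.0405 and 0.0263). In the other 15 of the 18 fits that left out a library it did not pass, with an FDR of up to 0.181. Without MM1S RSL3 replicate 1 the average was -1.15 (FDR 0.0851) and the MM1S value -1.11, and without MM1R Fer-1 + RSL3 replicate 2 the MM1R value was -1.85. Against untreated cells, TFRC fell, with log2 fold changes of -2.10 (SE 0.43, FDR 0.00701), or 4.28-fold, in MM1R and -2.60 (SE 0.44, FDR 0.00308), or 6.05-fold, in MM1S cells, DEGs in all 18 fits that left out a library. Without Fer-1 + RSL3 replicate 2, the MM1R value was -2.78 (FDR 0.00285). TFRC was below its untreated level in all 6 passages, as were 16% of all genes.

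**Figure D3:**
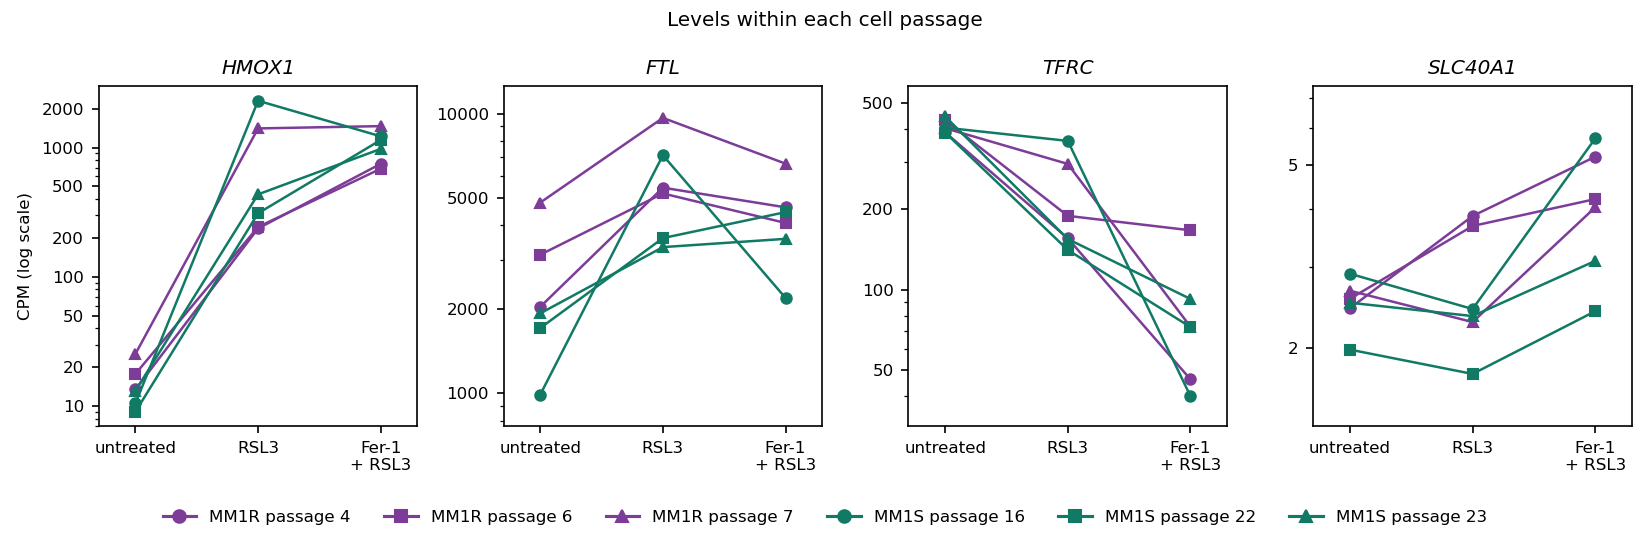
HMOX1, FTL, TFRC and SLC40A1 in CPM on a logarithmic axis, with a line for each cell passage joining its untreated, RSL3 and Fer-1 + RSL3 libraries (MM1R passages 4, 6 and 7, and MM1S passages 16, 22 and 23). TFRC is lower with RSL3 and lower again with Fer-1 + RSL3 in all 6 passages, SLC40A1 is higher with Fer-1 + RSL3 than with RSL3 in all 6, and HMOX1 is above its untreated level throughout.

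For SLC40A1, the exporter, Fer-1 + RSL3 libraries gave 5.21, 4.21 and 4.04 CPM in MM1R and 5.70, 2.41 and 3.09 CPM in MM1S cells. In MM1R cells all 3 values were above every RSL3 and every untreated value, while in MM1S cells the groups overlapped. It was higher than with RSL3 alone in all 6 passages, by 0.19 to 1.19 on the log2 scale, as were 8.05% of all genes. The log2 fold change was 0.45 (SE 0.29, FDR 0.861) in MM1R cells, 0.78 (SE 0.30, FDR 0.801) in MM1S cells and 0.62 (SE 0.21, FDR 0.234) in the average. Against untreated MM1R cells it was 0.81 (SE 0.29, FDR 0.0932), and the blocked fit gave an FDR of 0.0162, which 22.2% of all genes passed there.

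Neither ferritin chain passed the test in this comparison. With Fer-1 + RSL3, FTL measured 4623, 4065 and 6621 CPM in MM1R and 2194, 4444 and 3568 CPM in MM1S cells. FTH1 measured 43.1, 41.4 and 37.3 CPM in MM1R and 75.3, 92.3 and 63.4 CPM in MM1S cells. FTL was lower than with RSL3 alone in all 3 passages of MM1R and in passage 16 of MM1S cells, and higher in passages 22 and 23. The average log2 fold changes were -0.43 (SE 0.26, FDR 0.529) for FTL and -0.27 (SE 0.17, FDR 0.553) for FTH1. Without MM1S RSL3 replicate 1 they were -0.22 and -0.04, and in MM1S cells FTL went from -0.46 to -0.02 and FTH1 from -0.32 to 0.14. Against untreated cells, FTL had log2 fold changes of 0.62 (SE 0.37, FDR 0.327) in MM1R and 1.14 (SE 0.38, FDR 0.0971) in MM1S cells, and the latter was a DEG in the blocked fit (1.13, FDR 0.0326, where 2.68% of all genes were called) and without MM1S RSL3 replicate 1 (FDR 0.0443). In total, 2 of the 10 genes, HMOX1 and TFRC, were DEGs against untreated cells in each line, beside 2.16% of all genes in MM1R and 1.37% in MM1S cells. HMOX1, FTL, FTH1 and SLC40A1 were above their untreated level in all 6 passages, as were 17.1% of all genes. Groups did not overlap for 3 of the 10 in MM1R cells (HMOX1, SLC40A1 and TFRC), beside 30.6%, and for 5 in MM1S cells (HMOX1, FTL, TFRC, NCOA4 and ACO1), beside 28.3%. SLC11A2, IREB2, ACO1, NCOA4 and BLVRB differed by -0.15 to 0.11 between Fer-1 + RSL3 and RSL3, with no unadjusted p under 0.05.

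Untreated MM1R and MM1S cells were compared to see where the lines start. No passage number was shared between the lines, so differences of line and of passage number cannot be told apart. None of the 10 genes was a DEG, beside 4.64% of all genes, although groups did not overlap for 5 of them, beside 32.4%. At an unadjusted p under 0.05 there were 3 (FTL, FTH1 and SLC11A2), beside 24.8%, and DESeq2 called 0 of the 10. The log2 fold change, MM1R over MM1S, was 1.11 for FTL (SE 0.38, FDR 0.0726) and -0.67 for FTH1 (SE 0.24, FDR 0.0912), so neither passed. FTL became a DEG without MM1R untreated replicate 1 (1.36, FDR 0.0405) or MM1S RSL3 replicate 1 (1.12, FDR 0.0358). TFRC had nearly the same level in both lines (log2 fold change -0.02, 95% confidence interval -0.89 to 0.86). Per kilobase of transcript, the order of the mean untreated levels in MM1S cells ran from SLC40A1 (0.740 CPM per kb) through ACO1 (5.19), HMOX1 (7.05), SLC11A2 (8.89), IREB2 (18.7), BLVRB (24.0), FTH1 (48.6), TFRC (82.4) and NCOA4 (87.0) to FTL (1775). HMOX1 and SLC11A2, and TFRC and NCOA4, overlapped in their libraries there. In MM1R cells the order was the same but for HMOX1 (12.2 CPM per kb), which lay above SLC11A2 (7.53), and TFRC (81.3), which lay above NCOA4 (77.3) with overlapping libraries. HMOX1 and IREB2 (15.97), and BLVRB (24.3) and FTH1 (30.4), also overlapped in MM1R cells.

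The wider pathway was followed through 6 lists with 68 genes, all with a row, of which 56 passed the filter. With RSL3, 1 of the 56, BACH1, was a DEG in each line and in the average. Of all genes, 1.2% were called in MM1R cells, 1.61% in MM1S cells and 3.24% in the average. BACH1 encodes the heme-binding repressor of HMOX1 and the ferritin genes. BACH1 was at 63.3, 58.4 and 40.8 CPM in untreated MM1R cells and at 152, 104 and 198 CPM with RSL3. In MM1S cells it was at 59.1, 68.6 and 66.5 CPM untreated and at 278, 128 and 132 CPM with RSL3, so the groups did not overlap in either line. Groups did not overlap for 25.7% of all genes in MM1R and 24.9% in MM1S cells, and BACH1 was named because it was a DEG. BACH1 rose by 1.48 (SE 0.27, FDR 0.00862) in MM1R and by 1.47 (SE 0.27, FDR 0.00851) in MM1S cells. With Fer-1 + RSL3 it was also a DEG against untreated cells, at 1.33 (SE 0.27, FDR 0.00665) in MM1R and 1.19 (SE 0.27, FDR 0.0170) in MM1S cells. Of all genes, 2.16% were called there in MM1R and 1.37% in MM1S cells. The RSL3 call in MM1S cells ended in a fit of only the groups compared (FDR 0.165) and without untreated replicate 1 (FDR 0.0539), and the Fer-1 + RSL3 call there ended without any 1 untreated replicate or Fer-1 + RSL3 replicate 1 (FDR 0.0531 to 0.0784).

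With the FDR alone, 3 genes of the lists were higher and 4 lower with RSL3 in the average over both lines, 7 of 56 beside 15.5% of all genes. In mitochondrial iron import and iron-sulfur cluster assembly, 25 of 25 genes were tested, with 1 higher and 2 lower. ISCA1, a late-acting cluster assembly factor, was higher by 0.72 (SE 0.12, FDR 0.000760), and CIAO1 and CIAO3 of the cytosolic targeting complex were at -0.24 (SE 0.06, FDR 0.0174) and -0.39 (SE 0.10, FDR 0.0131). CIAO1 missed the FDR without MM1R RSL3 replicate 3 (-0.23, FDR 0.0519) and with no filter on low counts (-0.25, FDR 0.154). In heme synthesis, 8 of 9 genes were tested, with 0 higher and 2 lower. ALAS1, the rate-limiting first enzyme of the pathway, was at 54.6, 55.1 and 67.6 CPM in untreated MM1R cells and at 43.4, 48.5 and 44.7 CPM with RSL3, and in MM1S cells at 56.9, 56.2 and 55.0 CPM untreated and at 41.3, 44.5 and 43.3 CPM with RSL3. Its groups did not overlap in either line, and the average log2 fold change was -0.38 (SE 0.07, FDR 0.00296). The same was true of the groups of 25.7% of all genes in MM1R and 24.9% in MM1S cells, and ALAS1 was named for its small FDR. ALAD, the next enzyme, was the other one, at -0.27 (SE 0.08, FDR 0.0399).

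In iron regulators and export, 6 of 11 genes were tested and 2 were higher, BACH1 and CISD2, which encodes an iron-sulfur protein of the endoplasmic reticulum (0.23, SE 0.06, FDR 0.0184). Iron uptake and reduction (7 of 10 tested), iron storage and cytosolic iron chaperones (2 of 3) and heme breakdown and transport (8 of 10) had no gene past the FDR. HMOX2, the constitutive heme oxygenase, was listed at 0 to 7 counts and could not be tested. A second row of HMOX2 had 0 counts in every library. Reads of this gene may have been lost in the counting, which was not tested. Between Fer-1 + RSL3 and RSL3, none of the 56 genes passed the FDR in either line or in the average, where 0.119% of all genes did. At an unadjusted p under 0.05 there were 1 in MM1R cells, 0 in MM1S cells and 6 in the average, beside 6.17%, 5.75% and 12.8% of all genes. Between the untreated lines the one DEG of the 56, beside 4.64% of all genes, was ABCG2, a membrane transporter that exports porphyrins. It was at 24.0, 27.6 and 27.7 CPM in MM1R and at 1.24, 0.314 and 0.201 CPM in MM1S cells (log2 fold change 5.49, SE 0.52, FDR 9.13e-06). Line and passage number cannot be told apart here either.

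**Figure D4:**
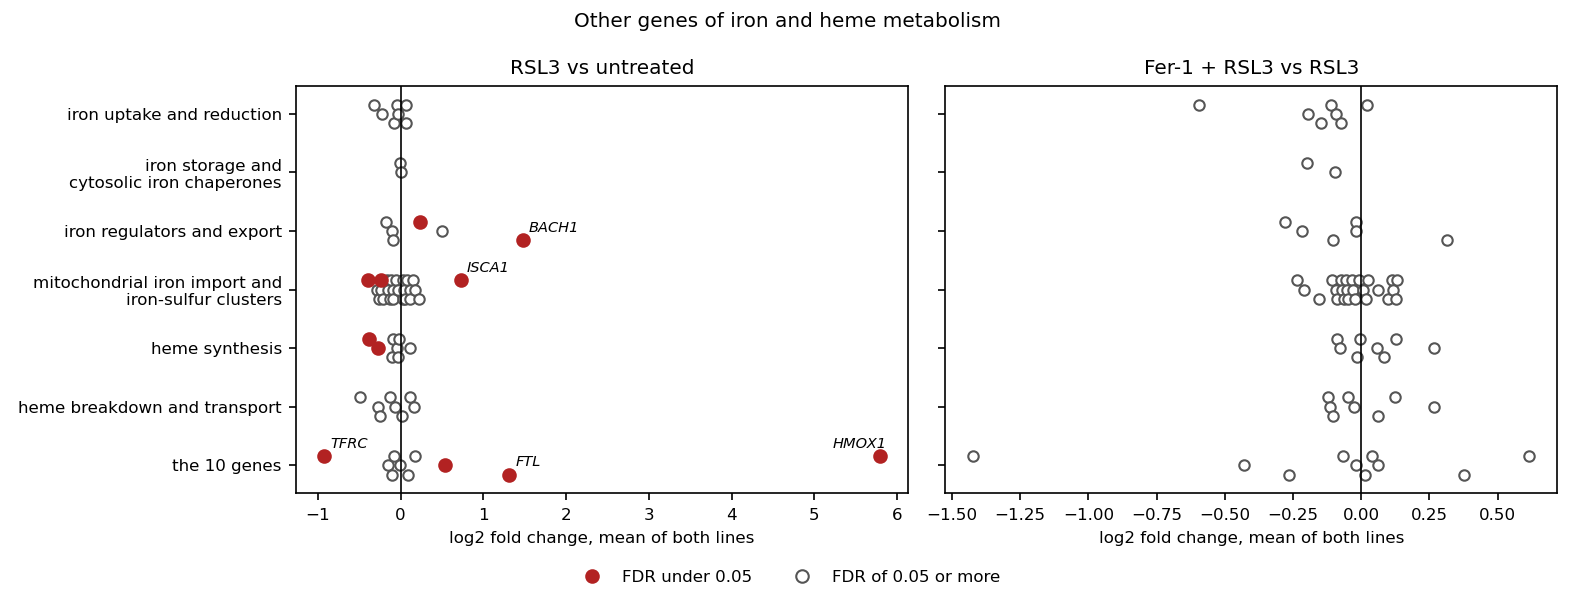
Log2 fold change, averaged over both lines, of the tested genes in 6 lists of iron and heme metabolism and of the 10 genes, for RSL3 against untreated (left) and Fer-1 + RSL3 against RSL3 (right). Each point is a gene, filled in red where the FDR was under 0.05, and the horizontal scales differ. On the left HMOX1 (5.79), BACH1 (1.47) and FTL (1.31) lie farthest to the right and TFRC (-0.92) farthest to the left, and on the right no point is filled and TFRC (-1.42) lies farthest from 0.

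The genes whose log2 CPM followed HMOX1 most closely over the 18 libraries were 2 rows of the heat shock gene HSPA1B (Pearson's r 0.987 and 0.986) and HSPA6 (0.985). For TFRC they were ATP8B2 (0.927), ATXN7L3 (0.906) and NECTIN1 (0.904), and for FTL they were PTPN1 (0.904), RNF216P1 (0.899) and ELF3 (0.892). The 18 points share 6 groups and include the libraries that stood apart, so they are not independent. Whether the genes also followed one another within groups, or without those libraries, was not tested.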

How the data were processed

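The authors sequenced total RNA from 18 libraries in paired-end reads, aligned it to hg19 with STAR (version 2.7.3a per the labels, with FastQC 0.11.5) and deposited raw read counts for 43735 genes, with a second table of normalized signal, the same counts divided by a size factor of 0.834 to 1.08 per library. The counting tool, annotation and strand setting are not given in the sources used here. The members and gene lists were chosen with earlier results of these data known, and the named genes are all 10 members, pathway genes that were DEGs or had the smallest FDR, and the 3 genes most correlated with HMOX1, FTL and TFRC.

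Raw counts were filtered with filterByExpr (minimum count 10) and TMM-scaled, and 6 group means were fitted with edgeR 4.0.16 (R 4.3.3, quasi-likelihood test, 12 residual degrees of freedom, Benjamini-Hochberg adjustment over 14281 genes). CPM used TMM-scaled library sizes. A passage number marks a shared passage within a line, so blocking on the passage (8 residual degrees of freedom) was tried as an alternative. Same-passage deviations had a median correlation of 0.250 in MM1R (0.0338 to 0.516) and 0.416 in MM1S cells (0.216 to 0.681). Other alternatives were DESeq2 1.42.0, RLE scaling, limma 3.58.1 on log2 (normalized value + 1), other filters and thresholds, only the groups compared, and leaving out each library. The study describes the 3 replicates per line as biologically independent, and p-values measure the spread between these passages of 1 line each. In simulated data with 4-fold changes, the steps recovered 84.6% (MM1R), 83.1% (MM1S) and 95.9% (average) of 195 changed genes among 14015. The simulated libraries had no line difference, no shared passage and no library that stood apart. Smaller changes were not simulated, so the recovery does not apply to them. Sequences and positions came from GENCODE v44 on GRCh37.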

Additional observations from a re-analysis of the deposited data

How the results depend on the processing

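With the passage as a replicate block, TFRC became 1 DEG of the 10 for Fer-1 + RSL3 against RSL3 in the average (53 genes called in place of 8), FTL became a DEG for Fer-1 + RSL3 against untreated MM1S cells, and no other call among the 10 changed. That TFRC count was also 1 with DESeq2, with an FDR under 0.5 (the threshold printed in the study's methods) and, in alternatives added after the data were seen, without both libraries that stood apart and with the block without the MM1R Fer-1 + RSL3 library 2. With no filter on low counts it was 1 in the average and in each line, and the counts were 2 for RSL3 in MM1R cells (431 genes called in place of 171), 1 for the interaction (HMOX1) and also 1 in the untreated comparison (FTL). The latter was 1 too with only the groups compared, with an FDR under 0.5 and without both libraries. RSL3 in MM1S cells gave 0 with only the groups compared (3 genes called in place of 230), RSL3 in MM1R cells gave 2 with an FDR under 0.5, and RSL3 in the average gave 4 with the FDR alone.

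Leaving out 1 library at a time gave counts of 1 to 2 for RSL3 in MM1S cells, 2 to 3 for RSL3 in the average, 0 to 1 for Fer-1 + RSL3 against RSL3 in the average, 2 to 3 for Fer-1 + RSL3 against untreated MM1S cells and 0 to 1 for the untreated lines. The count for RSL3 in the average was also 3 with limma, which added TFRC, and that for Fer-1 + RSL3 against untreated MM1S cells was 3 with no filter and with an FDR under 0.5, which added FTL. Directions turned for values near 0. The TFRC interaction was 0.00994 with no filter, 0.0628 with limma, 0.55 without both libraries and -0.31 to 0.55 with 1 library left out. The TFRC difference between untreated lines was 0.00531 with a minimum count of 50 and 0.0113 with only the groups compared, and -0.0620 to 0.0554 with 1 left out. Without both libraries FTH1 was at 0.10 for the interaction (-0.60 to 0.10 with 1 left out) and 0.14 for Fer-1 + RSL3 against RSL3 in MM1S cells (-0.55 to 0.14). With 1 left out, HMOX1 in that comparison ranged from -0.29 to 1.58 and SLC40A1 between untreated lines from -0.0697 to 0.18. Of 2850 alternative values of the 10 genes, 2718 kept their direction and side of the threshold, 7 lost and 33 gained a call, and 92 changed sign, 73 of them in the 5 genes given as ranges. Why a setting moved a value was not tested. SLC40A1 had a few CPM in each library, so its counts were low.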
